A study of Sus scrofa with 6 samples.

Results

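The genes of the mitotic spindle, the kinetochore and cytokinesis were followed in porcine satellite cells (PSCs) between 24 h and 36 h of differentiation. A panel of 60 gene symbols was read from the table of expression values by pairing each symbol with its pig Ensembl identifier. A row was found for 44 of the 60, and 42 of these reached the level needed for testing, out of 14060 genes tested in all. The panel covers the cyclins and kinases of mitotic entry, the spindle checkpoint, the centromere and outer kinetochore, the chromosomal passenger complex, the mitotic kinesins, spindle and cleavage proteins, and the proteins that condense and disentangle chromosomes. The other 16, which were CCNA2, CDC25C, PLK4, AURKA, MAD2L1, CENPA, CENPM, CENPN, SPC24, KNL1, BIRC5, CDCA8, NUSAP1, PRC1, ECT2 and MKI67, were not analysed here.

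PSCs are the stem cells of skeletal muscle. They were taken from the limb muscles of 3-day-old Yorkshire males, received a negative control (NC) siRNA in growth medium, and were moved to low-serum medium to differentiate. The comparison is between NC24h and NC36h, with 3 libraries each, numbered replicates 4, 5 and 6. The later group is called 36 h here after the title of the series, although its labels read 48 h. The NC siRNA is read from the letter N of the sample titles. Nothing states that the 3 libraries of a group came from separate animals or cultures, so p-values measure the spread between these libraries, which may be technical.

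A cell that enters mitosis activates CDK1 with B-type cyclins, condenses its chromosomes, and builds a spindle whose microtubules attach to the kinetochores. The spindle checkpoint holds the cell until every kinetochore is attached, after which the chromosomes separate and a contractile ring divides the cell. Most of these genes are transcribed together late in the cell cycle, in cells that divide. Satellite cells divide as myoblasts, and they leave the cell cycle before they fuse into myotubes.

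Most of the measured mitotic genes fell between 24 h and 36 h. Expression is given as FPKM, a fragment count corrected for gene length and for the size of the library. Changes are differences of log2(FPKM + 1) between the group means, which understate the fold change of genes with low values. Of the 42 genes tested, 38 passed an adjusted p of 0.05 in limma in the lower direction, where 34.4% of all genes did (50.9% in either direction). None passed it as higher, where 16.5% of all genes did. At an unadjusted p under 0.05, 0 were higher, and with voom on the recovered fragments 0 were higher too. The 4 that did not pass were ZWILCH, CENPH, CENPU and DSN1.

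The falls were large. The ratio of the NC24h mean to the NC36h mean had a median of 5.13 over the 42 genes, with quartiles of 2.98 and 6.73 and a range from 1.03 for DSN1 to 10.2 for CENPF. The mean FPKM at 24 h was at least 4 times that at 36 h for 27 genes. A log2 change of -1 or below, with an adjusted p under 0.05, was reached by 32 of the 42 genes, against 4.77% of all genes tested (8.36% in either direction). All libraries of NC24h lay above all libraries of NC36h for 40 of the 42, against 42.6% of all genes. On the log2 scale the median change was -1.48, against -0.16 over all genes.

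At 36 h, 13 of the 42 genes had a mean FPKM below 1 and passed the expression minimum through their 24 h values. Without that minimum, 39 of the 44 genes with a row were lower, where 22.4% of all genes were. The recovered fragments behind a gene summed to a median of 909 over the 3 NC24h libraries and 261 over the NC36h libraries, with the fewest for KIF18A at 265 and 43. Such low sums limit how precisely the remaining level of the rarest transcripts is known at 36 h.

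**Figure D1:**
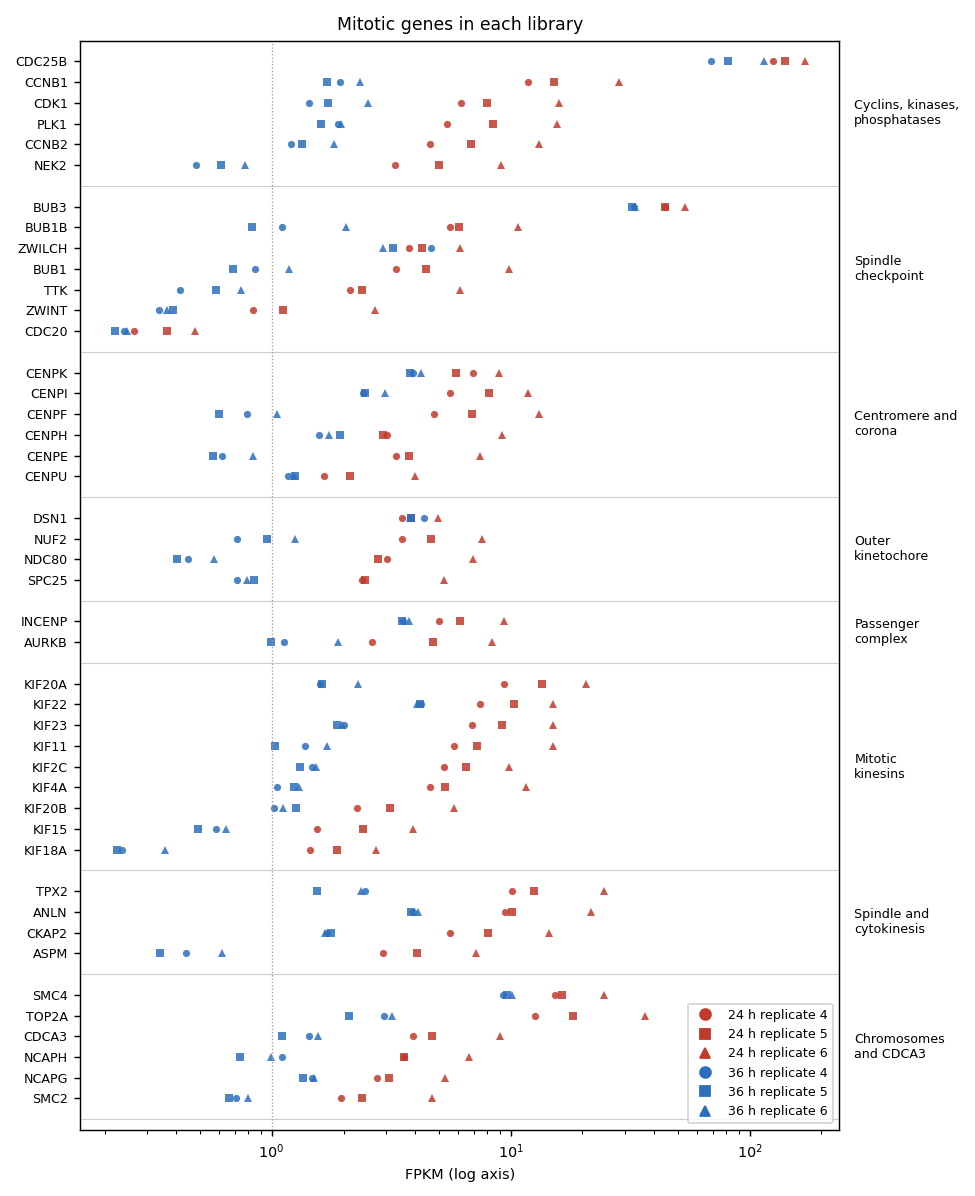
Each row is a mitotic gene, each point its FPKM in 1 library on a log axis, with NC24h in red, NC36h in blue and the shape giving the replicate number. The red and blue points are apart for 40 of the 42 genes tested, and ZWILCH and DSN1 are the tested genes whose groups overlap.

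The libraries of NC24h were far from alike in these genes. NC24h replicate 6 was the highest of the 6 libraries for all 42 genes, against 39.6% of all genes tested. Its FPKM was a median of 2.10 times the mean of replicates 4 and 5, against 1.04 over all genes. The same median was 1.67 over the tested DNA replication genes and 1.49 over 6 further mitotic lists together, both described below. Among those 6 lists it ran from 1.12 for cohesin to 1.72 for mitotic entry and G2/M transcription. A high replicate 6 was therefore not limited to the panel. The order replicate 6, 5, 4 held for 39 of the 42 at 24 h, against 34.2% of all genes. The within-group SD on the log2 scale had a median of 0.53 at 24 h and 0.11 at 36 h for the mitotic genes, against 0.14 and 0.10 over all genes.

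Summed over the members, the FPKM of replicates 4, 5 and 6 was 374.2, 442.8 and 690.6 at 24 h, against 176.6, 183.4 and 231.0 at 36 h. The groups did not overlap, and replicate 6 was the highest in either. CDC25B alone held 125.4, 140.8 and 170.1 FPKM of these sums at 24 h and 69.3, 81.5 and 115.5 at 36 h. The markers of differentiated muscle summed to 7420.6, 6255.4 and 3352.0 FPKM in NC24h, in the opposite order, and to 17438.4, 17368.1 and 15224.0 in NC36h, with 9 of the 9 tested higher at 36 h and a median change of 1.70. The satellite cell and myoblast markers summed to between 2355.9 and 2589.1 at 24 h and between 3787.7 and 4161.7 at 36 h, with 2 of 6 higher. The 2 were DES and CDH15, and DES, with a mean of 1693.0 and then 3182.2 FPKM, made up most of the sum. MYF5 (84.7 and then 59.9) and MYOD1 (315.7 and then 254.2) had lower means at 36 h and were not called. NCAM1 and VCAM1 were not called either. No row was found for PAX7, ITGA7, SDC4 and CXCR4 of this list, so its sum leaves them out. Fibroblast markers, of which 3 of 5 were lower and 2 higher, summed to 929.5, 950.3 and 1001.1 in NC24h and 1032.4, 857.3 and 827.1 in NC36h. Nearly all of that sum was COL1A2, with a mean of 692.9 and then 450.5 FPKM, and COL3A1, with 241.0 and then 443.2. DCN (18.8 and then 6.12) and LUM (5.51 and then 1.83) were also lower, and PDGFRB (1.62 and then 3.87) was also higher. The part of these differences in the result was not tested.

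Markers of other cell types were low, with CDH1 as the exception. Endothelial markers summed to at most 2.9 FPKM in any library, immune markers to 2.5 with PTPRC at 0, adipocyte markers to 0.6, and epithelial markers to 4.5 with KRT8 and PGR at 0. CDH1, an epithelial cadherin, made up nearly all of that sum at 36 h. It was at 0.417, 0.43 and 0.107 FPKM in NC24h and at 4.36, 4.18 and 2.35 in NC36h, and was called higher (change 1.79, limma adjusted p = 0.00155), as the 1 epithelial marker tested. Its part in the result was not tested. The epithelial list was read because the RNA protocol in the labels speaks of endometrium. In bulk RNA, fewer cells of a type and less RNA per cell cannot be told apart, so these values do not say whether fewer cells were dividing at 36 h or each held less mitotic mRNA. The table held 16338175 to 16863034 fragments per library at 24 h and 17968911 to 21840126 at 36 h.

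Without NC24h replicate 6, 41 of the genes were tested and 39 of them fell, CENPH and CENPU among them, and the median change was -1.23, against -0.13 over all genes. Over all 42 genes, the untested KIF18A included, the median ratio of the means was then 3.79, and 17 in place of 27 kept a ratio of at least 4. The size of the fall is therefore smaller without that library, and the number of genes that fell is not.

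**Figure D2:**
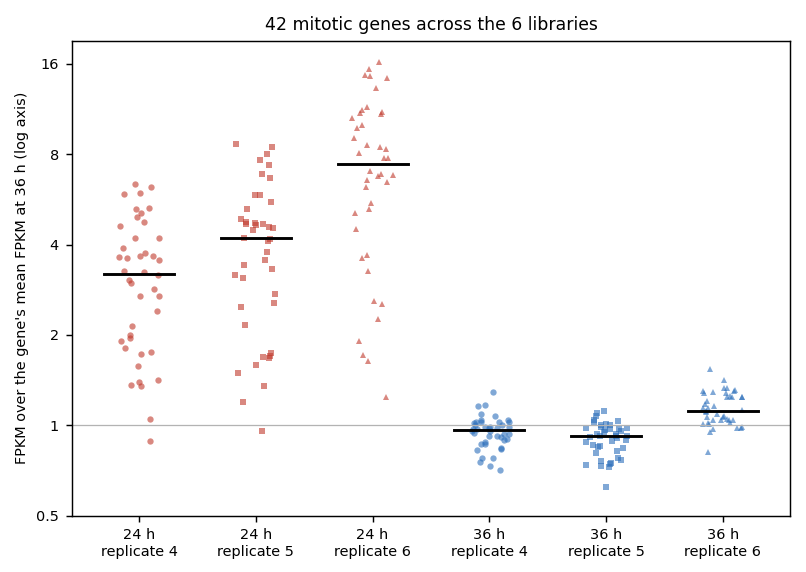
Each point is 1 of the 42 tested mitotic genes in 1 library, as its FPKM divided by its own mean at 36 h, on a log axis, and bars are medians. The medians are 3.2, 4.2 and 7.4 for replicates 4, 5 and 6 of NC24h and between 0.918 and 1.12 in the NC36h libraries.

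The cyclins, kinases and phosphatases of mitotic entry all fell, 6 of 6, with a median change of -1.84. CCNB1, cyclin B1, the partner that activates CDK1 at mitotic entry, was at 11.8, 15.2 and 28.5 FPKM in the NC24h libraries, in the order of replicates 4, 5 and 6 that is kept throughout, and at 1.93, 1.71 and 2.34 in NC36h. The lowest NC24h library was 5.06 times the highest NC36h library. Its mean went from 18.5 ± 8.84 to 1.99 ± 0.318 (SD, n = 3), a change of -2.62 (SE 0.29, limma adjusted p = 0.00126). This was the largest fall of the panel on the log2(FPKM + 1) scale, whereas by the ratio of the means CENPF (10.2), ASPM (10.1) and NEK2 (9.32) stood above CCNB1 (9.29). CCNB1 (ENSSSCG00000029326) lies on chromosome 16 at 47338239 to 47348385 (RefSeq positions on Sscrofa11.1).

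CDK1, the kinase that drives mitosis, was at 6.22, 7.96 and 15.9 FPKM in NC24h and at 1.44, 1.73 and 2.54 in NC36h, a change of -1.84 (SE 0.32, limma adjusted p = 0.00414). CCNB2, the second B-type cyclin of the panel, was at 4.62, 6.82 and 13.2 and then at 1.21, 1.34 and 1.82, a change of -1.81 (SE 0.32, limma adjusted p = 0.00465). Neither overlapped between the groups, and replicate 6 was the highest of its group at both times for both genes.

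NEK2, a kinase that separates the centrosomes, was at 3.27, 5.01 and 9.16 FPKM in NC24h and at 0.485, 0.614 and 0.773 in NC36h, so that 10.7% of its mean was left (change -1.98, SE 0.30, limma adjusted p = 0.00276). PLK1, the polo-like kinase that acts at centrosomes, kinetochores and the midbody, went from a mean of 9.83 ± 5.26 to 1.82 ± 0.185 FPKM (SD, n = 3), a change of -1.83. Both were lower in every NC36h library than in any NC24h library.

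CDC25B, a phosphatase that removes the inhibitory phosphates from CDK1, behaved differently in size. It was the most abundant member, at 125.4, 140.8 and 170.1 FPKM in NC24h and at 69.3, 81.5 and 115.5 in NC36h. The groups were close but apart, with 61% of the mean left and a change of -0.73 (SE 0.20, limma adjusted p = 0.0214). The call did not hold with median-ratio scaling (adjusted p = 0.0540), nor when NC24h replicate 5 (0.0552), NC36h replicate 4 (0.0611) or NC36h replicate 5 (0.0727) was left out, in a range of 0.0034 to 0.0727 over all alternatives.

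Of the spindle checkpoint genes, 4 of the 5 tested fell, with a median change of -1.42. BUB1B, the checkpoint protein BubR1 that restrains the anaphase-promoting complex, was at 5.59, 6.07 and 10.7 FPKM in NC24h and at 1.11, 0.826 and 2.05 in NC36h. The groups were well apart (change -1.85, SE 0.28, limma adjusted p = 0.00265). BUB1, a kinase that recruits other checkpoint proteins to the kinetochore, had a mean of 5.87 ± 3.5 and then 0.908 ± 0.252 FPKM, and TTK, the kinase at the top of the checkpoint, 3.55 ± 2.25 and then 0.581 ± 0.164 (SD, n = 3). Their changes were -1.74 and -1.42.

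BUB3, the partner to which BUB1 and BUB1B bind, was the most abundant checkpoint gene and fell least among those called. It was at 44.2, 44.3 and 53.7 FPKM in NC24h and at 32.8, 32.1 and 33.2 in NC36h, which leaves 68.9% of its mean. The groups did not overlap, and the change of -0.52 (SE 0.09) passed the test (limma adjusted p = 0.00393). ZWINT and CDC20 had mean FPKM values under 1 and were not tested. ZWINT, which anchors checkpoint proteins at the kinetochore, was at 0.835, 1.12 and 2.72 and then at 0.339, 0.387 and 0.366. CDC20, the activator of the anaphase-promoting complex that the checkpoint inhibits, was at 0.265, 0.364 and 0.476 and then at 0.242, 0.221 and 0.248 FPKM. The groups did not overlap in either gene. The gene length behind the CDC20 value was longer than the RefSeq gene, unlike that of the other members, so its level is uncertain.

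ZWILCH, a subunit of the complex that brings dynein and the checkpoint to unattached kinetochores, did not pass. It was at 3.76, 4.28 and 6.17 FPKM in NC24h and at 4.64, 3.21 and 2.93 in NC36h. The groups overlapped, since NC36h replicate 4 lay above NC24h replicates 4 and 5. The change was -0.32 (SE 0.20, limma adjusted p = 0.220), and the adjusted p stayed between 0.101 and 0.544 over 14 alternatives. Without NC24h replicate 6 the change was -0.14.

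At the centromere, 4 of 6 genes fell, and the 2 corona proteins fell most. CENPF, a large protein of the outer kinetochore corona that accumulates before mitosis, was at 4.78, 6.87 and 13.2 FPKM in NC24h and at 0.792, 0.602 and 1.05 in NC36h. At 36 h 9.84% of its mean was left (change -2.26, SE 0.31, limma adjusted p = 0.00215). CENPE, the kinesin that carries chromosomes to the spindle equator, went from 4.84 ± 2.27 to 0.676 ± 0.142 FPKM (SD, n = 3), a change of -1.74. Every NC36h library lay below every NC24h library for both.

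The members of the inner, constitutive centromere network had smaller changes. CENPI went from a mean of 8.48 to 2.61 FPKM, a change of -1.34. CENPK was at 6.94, 5.93 and 8.98 FPKM in NC24h and at 3.90, 3.78 and 4.24 in NC36h, a change of -0.72 (SE 0.14, limma adjusted p = 0.00645) with no overlap. CENPU was at 1.66, 2.12 and 3.99 and then at 1.17, 1.25 and 1.24, a change of -0.64 (SE 0.23, limma adjusted p = 0.0547). Its groups did not overlap, but the spread of the NC24h libraries was wide, and over the alternatives its adjusted p ran from 0.0224 to 0.127. Without NC24h replicate 6 its change was -0.38 and passed (limma adjusted p = 0.0394).

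CENPH, which binds CENPK in this network, was at 3.04, 2.94 and 9.22 FPKM in NC24h and at 1.58, 1.94 and 1.74 in NC36h. The NC24h replicate 6 value was 3.08 times the mean of the other libraries of its group, and the groups did not overlap. The change was -0.99 (SE 0.36, limma adjusted p = 0.0568), with a range of 0.00765 to 0.137 over the alternatives. Without NC24h replicate 6 the change was -0.54 and passed (limma adjusted p = 0.00765). CENPH lies on chromosome 16 at 47353319 to 47378746, 4933 bases from CCNB1 with 0 RefSeq genes between them, so a gene that fell and a gene not called are neighbours.

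In the outer kinetochore, the 3 measured subunits of the NDC80 complex, which holds the ends of the microtubules, all fell. NDC80 was at 3.03, 2.78 and 6.94 FPKM in NC24h and at 0.448, 0.402 and 0.574 in NC36h (change -1.75, SE 0.28, limma adjusted p = 0.00346). NUF2, which pairs with it, was at 3.52, 4.64 and 7.60 and then at 0.715, 0.956 and 1.25 (change -1.62, SE 0.24, limma adjusted p = 0.00271). SPC25, at the other end of the complex, was at 2.39, 2.47 and 5.28 and then at 0.716, 0.842 and 0.788 (change -1.24, SE 0.25, limma adjusted p = 0.00673). None of the 3 overlapped between the groups.

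DSN1, a subunit of the MIS12 complex that joins the NDC80 complex to the centromere, was the member that moved least. It was at 3.53, 3.83 and 4.96 FPKM in NC24h and at 4.36, 3.82 and 3.80 in NC36h. The groups overlapped, with a change of -0.02 (SE 0.13, limma adjusted p = 0.890), and the sign of the change turned under other settings, at 0.12 after median-ratio scaling, 0.16 after quantile normalization and 0.09 without NC24h replicate 6. Its value rests on 1228 recovered fragments at 24 h and 1462 at 36 h, more than stand behind any of its NDC80 partners.

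Both measured members of the chromosomal passenger complex, which corrects faulty attachments and then directs cleavage, fell. AURKB, its kinase, was at 2.62, 4.75 and 8.34 FPKM in NC24h and at 1.13, 0.994 and 1.90 in NC36h (change -1.33, SE 0.34, limma adjusted p = 0.0173). INCENP, its scaffold, was at 5.02, 6.14 and 9.37 and then at 3.54, 3.51 and 3.75 (change -0.73, SE 0.19, limma adjusted p = 0.0190). The groups were apart for both. Neither call held when NC36h replicate 4 (adjusted p = 0.0569 and 0.0572) or NC36h replicate 5 (0.0624 for both) was left out, within ranges of 0.00503 to 0.0624 for AURKB and 0.00811 to 0.0624 for INCENP.

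All 9 mitotic kinesins, the motors that move along spindle microtubules, fell, with a median change of -1.71. KIF20A, which carries the passenger complex to the spindle midzone, was at 9.37, 13.5 and 20.7 FPKM in NC24h and at 1.6, 1.62 and 2.3 in NC36h (change -2.39, SE 0.26, limma adjusted p = 0.00120). KIF11, which pushes the spindle poles apart, was at 5.81, 7.24 and 15.1 and then at 1.38, 1.03 and 1.71 (change -2.03, SE 0.31, limma adjusted p = 0.00290). KIF23, the motor of the centralspindlin complex that sets the cleavage plane, was at 6.92, 9.21 and 15.1 and then at 2, 1.88 and 1.97 (change -1.89, SE 0.24, limma adjusted p = 0.00175). In none of the 3 did the groups overlap.

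The other kinesins had smaller changes on the log2(FPKM + 1) scale, though by the ratio of the means KIF18A (7.41) stood above KIF11 (6.82) and KIF23 (5.34), and KIF4A (6.01) above KIF23. KIF4A, which condenses chromatin and shapes the midzone, changed by -1.80, and KIF2C, a microtubule depolymerase at the centromere, by -1.71. KIF18A, which damps chromosome movements, changed by -1.23 from a mean of 2.02 to 0.273 FPKM, a ratio that the log2(FPKM + 1) scale compresses. KIF22, a chromosome-bound kinesin, changed by -1.16, KIF15, which can stand in for KIF11, by -1.15, and KIF20B, which acts late in cytokinesis, by -1.08. KIF22 kept the highest level of the kinesins at 36 h, with a mean of 4.15 FPKM.

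The 4 measured spindle and cytokinesis proteins fell, with a median change of -1.87. TPX2, which nucleates microtubules around chromosomes and activates Aurora A, was at 10.1, 12.5 and 24.5 FPKM in NC24h and at 2.47, 1.55 and 2.37 in NC36h (change -2.34, SE 0.31, limma adjusted p = 0.00183). ASPM, a spindle pole protein, was at 2.92, 4.06 and 7.19 and then at 0.438, 0.342 and 0.623, which leaves 9.91% (change -1.90, SE 0.27, limma adjusted p = 0.00221). The groups were far apart for both. CKAP2, a spindle-associated protein, changed by -1.84. ANLN, the scaffold of the contractile ring, kept more of its level, with a mean of 13.8 FPKM at 24 h and 3.96 at 36 h and a change of -1.48.

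Among the proteins that shape chromosomes, 6 of 6 fell. TOP2A, the topoisomerase that disentangles sister DNA, was at 12.7, 18.3 and 36.4 FPKM in NC24h and at 2.96, 2.10 and 3.19 in NC36h (change -2.53, SE 0.35, limma adjusted p = 0.00208). The groups did not overlap, the ratio of the means was 8.18, and 6374 fragments at 24 h and 943 at 36 h stood behind it. CDCA3, which helps to trigger mitotic entry, changed by -1.47.

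The 4 condensin subunits of the panel, which compact the chromosomes, fell by different amounts. SMC4, an ATPase of the core, was at 15.3, 16.4 and 24.5 FPKM in NC24h and at 9.26, 9.69 and 10.1 in NC36h (change -0.85, SE 0.17, limma adjusted p = 0.00651). SMC2, its partner ATPase, was at 1.95, 2.40 and 4.70 and then at 0.710, 0.666 and 0.8 (change -1.16, SE 0.25, limma adjusted p = 0.00848). The groups were apart for both, with 51.8% of the SMC4 mean left at 36 h. NCAPH, the clasp that closes the condensin I ring, was at 3.57, 3.58 and 6.70 and then at 1.11, 0.739 and 0.996 (change -1.49, SE 0.22, limma adjusted p = 0.00267). NCAPG, another subunit of condensin I, was at 2.75, 3.10 and 5.31 and then at 1.48, 1.35 and 1.5 (change -0.91, SE 0.20, limma adjusted p = 0.00997). Neither overlapped between the groups.

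**Figure D3:**
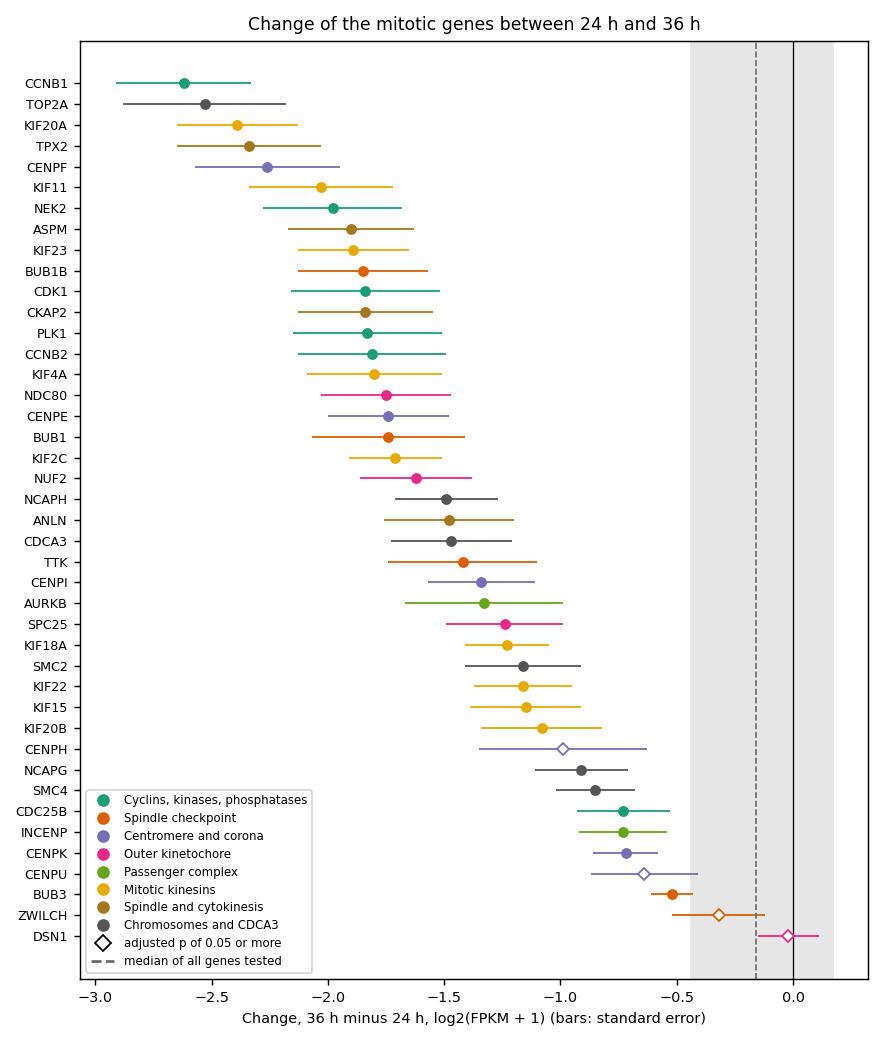
The change of each tested mitotic gene from 24 h to 36 h in log2(FPKM + 1), with bars for the standard error, colours for the role and open diamonds for genes with an adjusted p of 0.05 or more. The dashed line is the median of all genes tested, -0.16, and the grey band their quartiles, -0.44 and 0.17. CCNB1 is at -2.62 and DSN1, whose sign turns under other scalings, at -0.02.

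The partners of a complex were also compared with each other. The ratio of 2 FPKM values within a library does not depend on the library total. Between the groups, 7 such ratios were compared by an exact two-sided permutation test over the 6 libraries. That test cannot give a p below 0.1, before or after Benjamini-Hochberg adjustment over the 7. SMC4 to SMC2 was 7.84, 6.83 and 5.21 in NC24h and 13.1, 14.5 and 12.6 in NC36h, with no overlap (exact p = 0.1, adjusted 0.14). NCAPG to NCAPH was 0.769, 0.865 and 0.793 and then 1.33, 1.82 and 1.51, again with no overlap (exact p = 0.1, adjusted 0.14). In both pairs the ratio was higher in every NC36h library.

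In the passenger complex, INCENP to AURKB was 1.92, 1.29 and 1.12 and then 3.14, 3.53 and 1.97 with no overlap (exact p = 0.1, adjusted 0.14). In the NDC80 complex, SPC25 to NDC80 was 0.79, 0.888 and 0.760 and then 1.6, 2.1 and 1.37 with no overlap (exact p = 0.1, adjusted 0.14), whereas NUF2 to NDC80 overlapped, at 1.31 ± 0.315 and then 2.05 ± 0.407 (SD, n = 3, exact p = 0.2, adjusted 0.233). In the NC36h libraries these ratios rest on few recovered fragments, at 28, 26 and 41 for AURKB and 18, 17 and 20 for NDC80. Their size at 36 h is therefore imprecise. Of the cyclins, CCNB1 to CDK1 was 1.90, 1.91 and 1.80 and then 1.34, 0.987 and 0.919, lower in every NC36h library (exact p = 0.1, adjusted 0.14). CCNB2 to CDK1 was 0.810 ± 0.0596 and then 0.776 ± 0.0622 (SD, n = 3), and the groups overlapped (exact p = 0.6, adjusted 0.6). At 3 against 3 libraries none of the 7 can pass 0.05, and ratios of other gene pairs were not computed for comparison.

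**Figure D4:**
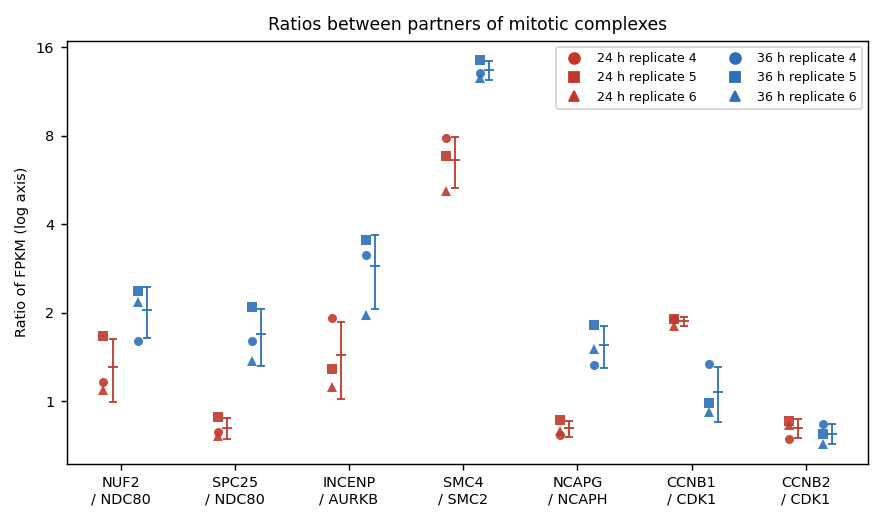
Ratio of the FPKM of 2 partners in each library on a log axis, with NC24h in red, NC36h in blue, and bars for the mean and SD of 3 libraries. The groups are apart for 5 of the 7 ratios and overlap for NUF2 to NDC80 and CCNB2 to CDK1. No share over other pairs of genes was computed for comparison.

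Other genes of mitosis, read from 6 further lists, had a smaller median change. Together they hold 130 symbols, of which 96 had a row and 89 were tested. Of these 59 were lower (66.3%, against 34.4% of all genes), 6 higher (where 16.5% of all genes were) and 24 not called, with a median change of -0.57 against -1.48 for the panel. With median-ratio scaling, 52 were lower and 11 higher, where 3136 and 3367 of the 14060 genes were. The list of mitotic entry and G2/M transcription had 11 lower and 1 higher of 16 with a median of -0.97, and the remaining condensin subunits 3 lower of 4. The cohesin list had 12 lower of 14, the other kinetochore genes 8 of 13, the other spindle and centrosome genes 18 of 29 with 4 higher, and the list of the anaphase-promoting complex (APC/C), securin and separase 7 of 13 with 1 higher.

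The 5 largest falls of these lists were of the size seen in the panel. UBE2C, the ubiquitin-conjugating enzyme of the APC/C, was at 14.9, 21.5 and 48.6 FPKM in NC24h and at 3.07, 3.13 and 4.90 in NC36h, a change of -2.49 (SE 0.40, limma adjusted p = 0.00335). RACGAP1, the partner of KIF23 in centralspindlin, was at 8.29, 12.6 and 20.5 and then at 1.94, 1.66 and 2.45, a change of -2.22. DLGAP5 and HMMR, which organise spindle microtubules, changed by -2.21 and -2.14, and PBK, a mitotic kinase, by -1.92. As in the panel, NC24h replicate 6 was the highest library for each of the 5. The transcription factors FOXM1 and MYBL2, which switch on late cell cycle genes, changed by -1.01 and -0.95 (limma adjusted p = 0.0255 and 0.0325), and they are named after their values were seen.

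In these lists 6 genes were called higher. KIF24, a kinesin of the centriole that restrains the growth of cilia, was at 3.13, 2.77 and 2.37 FPKM in NC24h and at 15.8, 13.6 and 10.2 in NC36h, a change of 1.90 (SE 0.16, limma adjusted p = 0.000752). CDC14A, a phosphatase, changed by 0.46, ENSA, an inhibitor of the phosphatase PP2A, by 0.45, and TUBGCP2, a subunit of the microtubule-nucleating gamma-tubulin complex, by 0.44. STMN1, which binds free tubulin, changed by 0.43, and NUMA1, a nuclear protein that moves to the spindle poles, by 0.37. That of KIF24 was the only change of the 6 above 1 on the log2 scale.

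DNA replication genes, whose products act in S phase, gave a point of comparison. Of 40 named, 27 had a row and 23 were tested, and 9 of these were lower (39.1%) and 0 higher, with a median change of -0.42. At an adjusted p under 0.05 the share lower was near the 34.4% of all genes. The ratio of the NC24h mean to the NC36h mean had a median of 1.52 over these 23 genes, against 1.14 over all genes. In this list NC24h replicate 6 was a median of 1.67 times the mean of replicates 4 and 5. A wide spread within a group makes it harder to pass, so a gene not called is not shown to be unchanged. The largest falls were those of CDC45, a subunit of the replicative helicase, at -1.46, and MCM3, another, at -1.39. Without NC24h replicate 6, 9 were lower and 1 higher, where 4816 and 2452 of 13914 genes were. With median-ratio scaling 5 were lower and 0 higher, where 3136 and 3367 of the 14060 genes were. The difference between the panel and this list was not tested, and it is given as the counts and medians of either.

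**Figure D5:**
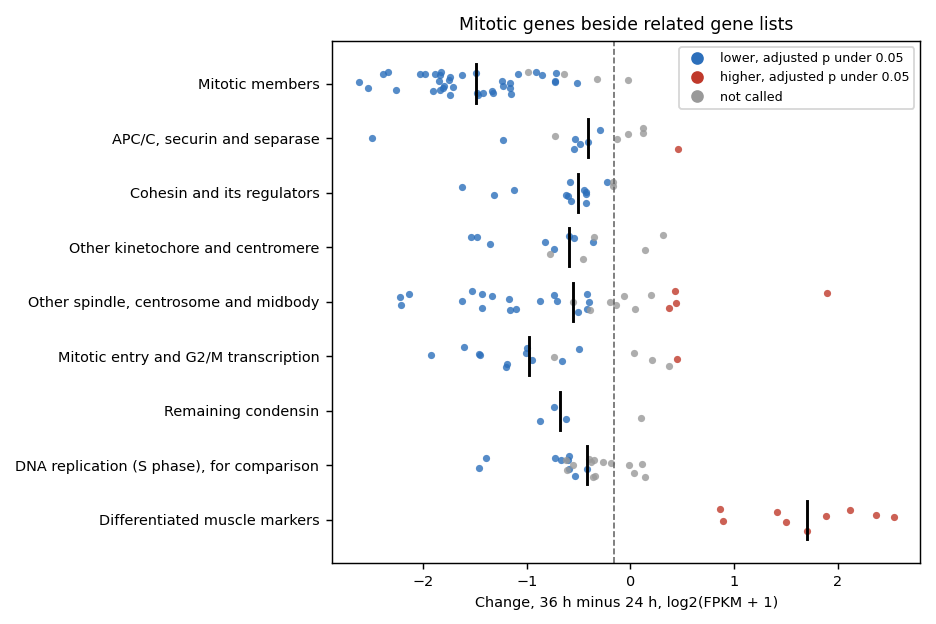
Change from 24 h to 36 h in log2(FPKM + 1) of each tested gene, by list, with bars for medians, the dashed line for the median of all genes tested, blue for genes called lower, red for genes called higher and grey for the others. The panel has its median at -1.48, the DNA replication genes at -0.42, and the 9 differentiated muscle markers at 1.70.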

How the data were processed

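RNA-seq was measured in 6 libraries of PSCs with NC siRNA. Per the labels the tools were TopHat2, Cufflinks and HTSeq with Sscrofa11.1, whereas the methods of the study name HISAT2, StringTie and HTSeq. The authors deposited FPKM values, 1 column per library, and 0 columns were left unused. Strandedness and the handling of reads shared between genes are not given in the sources used here.

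Fragments behind each FPKM value were recovered from its steps. Whole numbers (within 0.02) came out for each of the 19543 genes with 3 or more libraries above 0, and 98.7% of 3003 low genes gave a whole length within 0.05. The recovery was tested on simulated data, where 98.9% of 2968 genes came back exactly. The value of 1 fragment per kilobase was 0.0457 to 0.0610 FPKM.

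Genes whose mean FPKM reached 1 were fitted on the log2(FPKM + 1) scale by limma 3.58.1 (R 4.3.3) using lmFit and a trended eBayes, two-sided, with Benjamini-Hochberg adjustment over 14060 genes and a threshold of 0.05. The test was checked on data simulated with the same spread setting at both times. That check does not cover the wider spread of the mitotic genes at 24 h. Symbols were paired with 11804 of 25322 Ensembl identifiers. Genes given by library are the 10 largest falls on that scale, the genes not called, the most abundant gene of each role and the measured partners of 4 complexes, and of the other lists the 5 largest falls and the genes called higher. Members and lists were chosen with earlier results of these data known. Alternatives were pseudocounts of 0.1 and 0.01, no minimum, a minimum mean of 5 FPKM, scaling by median ratios, quantile normalization, no trend, the replicate number as a block, voom on recovered fragments, a log2 change of at least 1, and leaving out each library.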

Additional observations from a re-analysis of the deposited data

How the results depend on the processing

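The 0 genes of the panel called higher stayed at 0, and 35 of the 42 were called lower wherever they were tested, in the alternatives other than a log2 change of at least 1, which left 32 lower. The count of 38 lower became 17 of 17 tested at a mean FPKM of at least 5, where fewer genes are tested by construction, and the 65 calls in the other mitotic lists became 33. Leaving out 1 library gave 35 to 40 genes lower, medians of -1.68 to -1.23, 51 to 68 calls in the other mitotic lists, and 4881 to 7268 calls over all genes, the lowest without NC36h replicate 5, where 7156 were called in all. The median of -1.48 moved to -2.22 and -2.28 with pseudocounts of 0.1 and 0.01 and to -2.28 with voom, since a smaller pseudocount compresses low values less. A log2 change of at least 1 left 1176 calls over all genes. Over all genes the calls were 4834 lower and 2322 higher, against 3136 and 3367 with median-ratio scaling and 3542 and 3039 with quantile normalization. Median-ratio scaling moved the median change of all genes from -0.16 to -0.006. DSN1 turned positive, at 0.12 with median-ratio scaling, 0.16 with quantile normalization, 0.09 without NC24h replicate 6, 0.00071 without NC36h replicate 5 and 0.0044 without NC36h replicate 6 (from -0.11 to 0.09 when 1 library was left out), and the cause was not tested. Over all genes tested, deviations of same-numbered libraries correlated at 0.15, -0.02 and 0.18, which was not read as pairing of the libraries by number. In the panel, NC36h replicate 6 was the highest NC36h library for 31 of the 42 genes, against 39.1% of all genes. Whether the libraries pair by number in these genes was not tested. With the replicate block, 40 members were lower, 0 higher, with a median of -1.48, 7034 genes were called and 65 in the other mitotic lists. A count test with edgeR was not run, and the recovered fragments were tested with voom only.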
